A study of Mus musculus with 24 samples.

Results

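The genes described here are 47 protein-coding genes of RNA polymerase I and of ribosome assembly. They were picked by symbol from the 27179 gene identifiers of the count table, with earlier results of these data known. All 47 were found in the table, and all 47 passed the filter on low counts in every comparison, so none is missing from the counts below. They fall into 6 roles: 7 act in RNA polymerase I transcription (Ubtf, Polr1a, Polr1b, Polr1c, Polr1d, Polr1e and Rrn3), 4 are box C/D snoRNP proteins (Fbl, Nop56, Nop58 and Rrp9), and 4 are box H/ACA snoRNP proteins (Dkc1, Nhp2, Nop10 and Gar1). Another 6 are nucleolar chaperones, scaffolds and a helicase (Ncl, Npm1, Nolc1, Mybbp1a, Gnl3 and Ddx21). Small subunit assembly has 15 genes (Rrp12, Utp14a, Utp20, Heatr1, Wdr43, Wdr75, Nat10, Ddx10, Nop14, Nob1, Tsr1, Ltv1, Bms1, Noc4l and Emg1) and large subunit assembly 11 (Bop1, Pes1, Wdr12, Nop2, Nop16, Rrp1b, Ddx18, Noc2l, Noc3l, Nip7 and Ebna1bp2).

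Ribosomes are built in the nucleolus. RNA polymerase I, brought to the ribosomal DNA by Rrn3 and by the architectural factor Ubtf, makes one long precursor RNA, which guide RNAs in box C/D and box H/ACA particles mark for methylation and pseudouridylation while assembly factors cut, fold and load it with ribosomal proteins into the small and the large subunit. Haematopoietic stem cells keep a low rate of protein synthesis and divide rarely, and many genes of this pathway are known targets of the transcription factor Myc. Phf6 encodes a chromatin and nucleolar protein with PHD-like zinc fingers that has been reported to bind Ubtf.

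The libraries came from bone marrow of 8 mice, 4 with Phf6 deleted and 4 with Phf6 intact (controls), in 4 litters with a mouse of either kind in each. Both kinds carry the strain label Phf6lox/Y;Tie2-creTg/+, a floxed allele of the X-linked gene together with a Cre transgene driven in endothelial and blood cells, and whether the control mice carried Cre cannot be told from it. Lineage-depleted marrow of each mouse was sorted on cKIT, SCA1, CD150 and CD48 into 3 populations. These are haematopoietic stem cells (HSC), multipotent progenitors (abbreviated MPP) and the more restricted HPC-1 progenitors, which gave 24 libraries of polyadenylated RNA in 6 groups of 4. HSC and MPP RNA was amplified with SMART-Seq v4, while HPC-1 libraries were made with a TruSeq Stranded kit, so HPC-1 levels were not set against those of HSC or MPP. No age, treatment or culture is given in the labels.

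Libraries held 9658167 to 27786830 counts. Phf6 checked the labels: in HSC it stood at 184, 219.5, 240.5 and 223 CPM (counts divided by TMM-scaled library size, put on one scale for all libraries of a kit) in controls of litters 1 to 4 and at 36.9, 53.5, 54.5 and 79.8 in deleted mice, a log2 difference of -1.95 ± 0.22 (SE, adjusted p = 0.0211, or 0.0606 with the litter as a block). It fell by 1.82 ± 0.18 on the log2 scale in MPP (adjusted p = 0.00432) and by 2.08 ± 0.16 in HPC-1 (adjusted p = 3.29e-05), and no deleted library reached a control one in any population. Here and below, adjusted p-values are Benjamini-Hochberg values of edgeR's quasi-likelihood test over all genes, and a gene is said to change only under 0.05. The sort marker Slamf1 (CD150) lay between 9.086 and 86.71 CPM in HSC, its lowest value in the deleted HSC library of litter 3, and between 0 and 3.457 in MPP. Kit was high in every library. Of the mature lineage markers, Cd3e was at 0 in 22 of 24 libraries, but Ly6g was at 0 in only 1, with group means of 1.633 to 7.617 CPM. Ptprc had group means of 322.6 to 607.4 CPM, and the neutrophil gene S100a8 was above 0 in every library. The MPP library from deleted mouse 3 differs from the rest, with 9.339% of its counts in its top 10 genes against 2.948% to 5.083% in the other 23 libraries. Many of the MPP results that lean on it, though not all, are also given without it. Of the 47 genes, 14 overlap another gene that is no small RNA gene, among them Bop1, Polr1e, Nat10, Nop56 and Nhp2, and SMART-Seq reads do not show which strand they came from. Replicates are separate mice.

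Promoter sequence was read as a feature the choice of the genes did not use. RefSeq (GRCm38.p6) gave a window from 250 bases before to 50 bases after a transcript start for 43 of the 47 genes, with more than 1 window where it lists several starts. The E-box CACGTG, the palindromic site that Myc with its partner Max can bind, was in a window of 8 of these 43 (18.6%), against 2187 of 27025 genes (8.09%). The core GGAAG of ETS factors, read on both strands, was in 36 of 43 (83.7%) and in 73.9% of all genes. Counted by window, CACGTG was in 15.4% of those of the 47 genes and in 7.15% of all. The comparison set is every gene with a window, expressed or not, while the 47 are all expressed, so the sets differ in more than the pathway. These matches are letters in a window, not measured binding. The stretches below are shown because the E-box sits in a polymerase I factor and in genes that come up in the results, with the motif in capitals and each read on its gene's strand and placed against its own window's start, which in Wdr43 lies inside the gene, downstream of its first base.
Rrn3, chr16:13780472-13780501, plus strand, motif 215 bases before the start: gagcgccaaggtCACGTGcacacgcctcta
Rrn3, chr16:13780639-13780668, plus strand, motif 48 bases before the start: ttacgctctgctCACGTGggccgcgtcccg
Nop2, chr6:125131811-125131840, plus strand, motif 60 bases before the start: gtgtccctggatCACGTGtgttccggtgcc
Pes1, chr11:3963965-3963994, plus strand, motif 2 bases past the start: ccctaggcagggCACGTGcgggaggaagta
Wdr43, chr17:71616220-71616249, plus strand, motif 17 bases past the start: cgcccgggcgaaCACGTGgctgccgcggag
Rrn3, which recruits the polymerase, carries the motif at 2 places, while Pes1, Nop2 and Wdr43 carry it within 60 bases of their window's start. The other 4 genes with the motif are Ltv1, Utp20, Mybbp1a and Tsr1.

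All 47 genes were expressed in every group. Per kilobase of exon, the most abundant in control HSC was Nop10, the smallest protein of the box H/ACA particle, at 557 ± 75.8 CPM per kb (SD, n = 4). The nucleolar chaperone Npm1 followed at 297 ± 30.8, then the box C/D core protein Nop56 at 220 ± 33.5, Nhp2 of the box H/ACA particle at 182 ± 49.0 and the other box C/D core protein Nop58 at 176 ± 29.6. Nop56, Nhp2 and Nop58 did not differ from each other beyond their spread. The pseudouridine synthase Dkc1 stood at 149 ± 18.3 and the abundant nucleolar RNA-binding protein Ncl at 124 ± 14.7. At the low end were Utp20, a scaffold of the small subunit precursor, at 3.33 ± 0.722, the large subunit factor Noc3l at 7.52 ± 1.47, Rrp12 at 9.94 ± 2.71 and the largest polymerase I subunit, Polr1a, at 9.997 ± 0.9642. The last 2 of these did not differ beyond their spread. Ubtf stood between the ends at 33.5 ± 3.97, and the methyltransferase Fbl at 27.4 ± 5.43 was well under its partners Nop56 and Nop58. RefSeq also lists a pseudogene of Fbl, so its count may be split between copies. This order depends on the exon length given with the counts. Not divided by length, Ncl (8257 bases) was the highest of the 47 genes in control HSC, at a mean of 1027 CPM.

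The median over the 47 genes was 38.93 CPM per kb in control HSC, 35.45 in control MPP and 39.37 in control HPC-1, beside 12.77, 13.37 and 13.98 for all genes at 1 CPM or more. In control MPP the same ends of the range held Nop10, Npm1 and Nop56 on top and Utp20, Noc3l and Polr1a at the bottom. In control HPC-1, on another kit, Npm1 led with 255 ± 37.2 and Ncl followed with 231 ± 50.7, which overlap, and Polr1e was lowest with 14.1 ± 2.29. The median coefficient of variation over the 47 genes was 14.1% in control HSC and 15.2% in control MPP, against 19.8% and 25.7% in the deleted mice of these populations. In HPC-1 it was 16% in control and 9.72% in deleted mice. The same measure over all genes is not given, so these values do not show a spread particular to the 47 genes. The deleted MPP group includes the library of deleted mouse 3, and its highest value was 76.9% for Npm1.

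**Figure D1:**
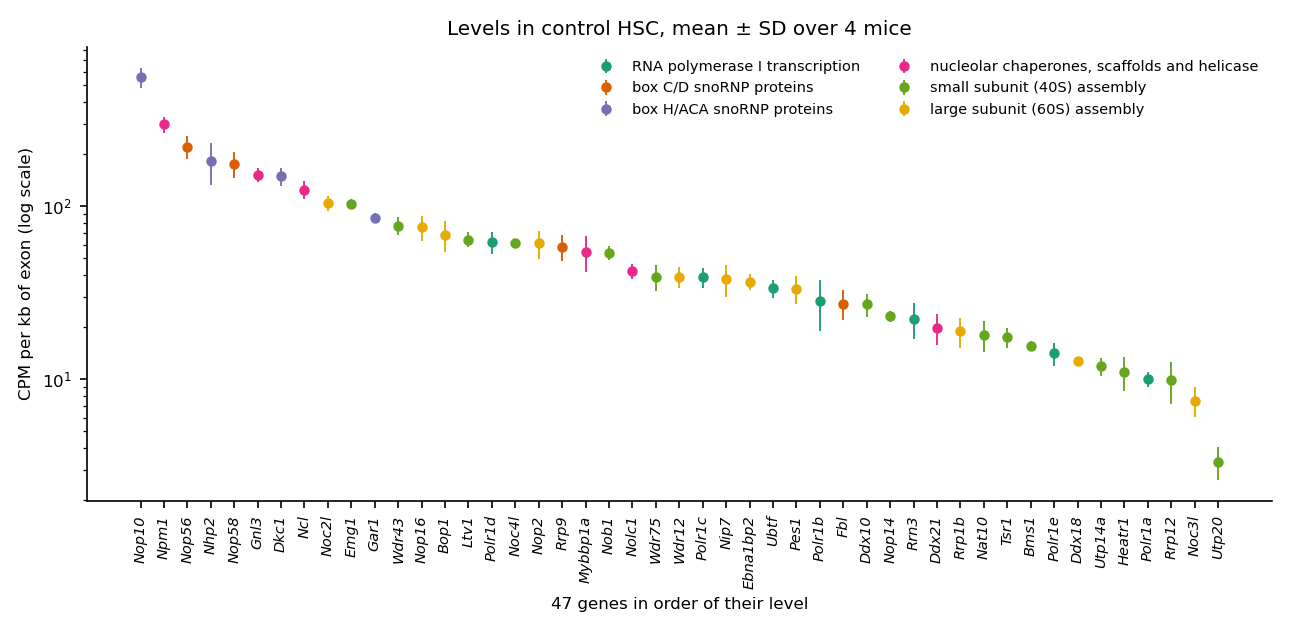
Expression level of the 47 genes in control HSC, in CPM per kilobase of exon on a log axis, with genes coloured by role and points and bars giving the mean and SD of 4 mice. Levels run from 3.333 for Utp20 to 556.7 for Nop10, and Npm1, Nop56, Nhp2 and Nop58 follow Nop10 at the top.

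In HSC, loss of Phf6 moved none of the 47 genes past the threshold, and the genes were nearly evenly spread about 0. The median log2 difference between deleted and control mice was -0.006 (0.006 over all genes), and 25 of 47 genes lay below 0 (49.2% of all genes did). With edgeR, 0 of 47 passed the adjusted threshold, where 0.0073% of all genes did, and DESeq2, limma-voom and the fit with the litter as a block also called 0. At an unadjusted p under 0.05 there were 2 (3.86% of all genes), against 3 with DESeq2 (4.65%), 2 with limma-voom (4.77%) and 0 with the block (3.46%). Leaving out 1 library moved that count between 0 and 7, the 7 (7.89% of all genes) without the deleted mouse of litter 4, and it was 6 (4.83% of all genes) without both mice of litter 4, chosen after seeing the data. All 47 log2 differences were smaller than 0.5 in size.

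The 2 HSC genes with the lowest p differed in opposite directions. Gar1, a box H/ACA protein, was at 114, 116, 101 and 107 CPM in control HSC of litters 1 to 4 and at 87.0, 83.9, 93.9 and 83.0 in deleted HSC, a log2 difference of -0.33 ± 0.14 (adjusted p = 0.998, edgeR). Every deleted library was below every control one, which was so for 1 of 47 genes and for 1.56% of all genes. Wdr43, a factor of the early small subunit precursor and one of the E-box genes above, was at 279.5, 234, 303 and 251 CPM in control and 373, 459, 298 and 309 in deleted HSC, a difference of 0.44 ± 0.17 (adjusted p = 0.998, edgeR). Here the deleted libraries of litters 1, 2 and 4 were above all controls and that of litter 3 was inside their range.

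The largest difference in HSC was that of the RNA helicase Ddx21, at 107, 65.4, 101 and 104 CPM in controls and 161, 122, 139.5 and 92.5 in deleted mice (0.45 ± 0.21 on the log2 scale, adjusted p = 0.998, edgeR). Its deleted mouse of litter 4 lay inside the control range. The smallest was that of Heatr1, a small subunit factor that also serves polymerase I transcription, at 54.6, 68.5, 91.8 and 82.4 CPM in controls and 39.97, 60.94, 39.22 and 77.66 in deleted mice (-0.45 ± 0.26, adjusted p = 0.998). It was lower in the deleted mouse of each litter, yet the groups overlap. The acetyltransferase Nat10 stood at 49.6, 76.6, 81.9 and 69.3 CPM in control and 73.5, 82.7, 114 and 94.7 in deleted HSC (0.39 ± 0.20, adjusted p = 0.998, edgeR). It was higher in the deleted mouse of each litter, with overlapping groups.

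By role, the polymerase I genes had a median log2 difference of -0.13 in HSC with 6 of 7 below 0, and the small subunit genes a median of 0.14 with 3 of 15 below 0. The box H/ACA genes stood at -0.14, the large subunit genes at -0.04, the box C/D genes at 0.03 and the chaperones at 0.06. Within the polymerase I genes Ubtf differed by -0.19 ± 0.14, Polr1b, the second-largest subunit, by -0.25 ± 0.30, Rrn3 by -0.24 ± 0.20, Polr1e by -0.13 ± 0.25 and Polr1a by 0.15 ± 0.18, none past the threshold. Polr1b varied most among control HSC, at 57.3, 135, 127 and 131 CPM, with litter 1 well below the rest. Fbl differed by -0.23 ± 0.23, Ncl by -0.04 ± 0.15, Npm1 by 0.16 ± 0.21 and Dkc1 by 0.00 ± 0.18, and the last of these took the other sign with no expression filter, with limma-voom and with the litter block.

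In MPP, more of the genes lay below 0 after loss of Phf6, though again none passed the threshold. The median log2 difference was -0.14 (0.02 over all genes), and 34 of 47 genes were below 0 (48.1% of all genes). With edgeR, 0 of 47 passed, where 0.029% of all genes did, and DESeq2, limma-voom and the litter block also called 0. At an unadjusted p under 0.05 there were 6 (8.09% of all genes), all 6 lower in deleted mice (2.38% of all genes had such a p and were lower), against 7 with DESeq2 (10.1%), 8 with limma-voom (7%) and 9 with the block (8.64%). In 6 genes every deleted library lay below every control library (2.93% of all genes), and in 0 every deleted library lay above (2.85% of all genes). Without both mice of litter 4, an alternative chosen after seeing the data, 25 of 47 were below 0 and the median was -0.05. There 1 gene had an unadjusted p under 0.05 with edgeR (5.18% of all genes). In 8 genes every remaining deleted library lay below every remaining control library (7.07% of all genes).

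Of the polymerase I genes, Ubtf (chr11:102304560-102323649 on GRCm38) was at 153, 153, 138 and 147 CPM in control MPP of litters 1 to 4 and at 118, 122, 79.4 and 105 in deleted MPP. The groups did not overlap, and the lowest value was that of deleted mouse 3. The log2 difference was -0.48 ± 0.17 (adjusted p = 0.597, edgeR). Polr1e (chr4:45018609-45034279), a subunit of the polymerase's initiation and elongation subcomplex, was at 36.4, 34.1, 27.9 and 38.7 CPM in control and 22.2, 26.2, 22.7 and 24.1 in deleted MPP, again without overlap (-0.52 ± 0.19, adjusted p = 0.592, edgeR). Polr1b was at 62.3, 72.0, 81.7 and 89.6 CPM in control and 56.4, 73.4, 35.2 and 51.2 in deleted MPP (-0.50 ± 0.23, adjusted p = 0.617, edgeR), where the deleted mouse of litter 2 was inside the control range. The initiation factor Rrn3 and the catalytic subunit Polr1a differed by -0.01 ± 0.17 and -0.16 ± 0.28. The role's median was -0.16 with 6 of 7 genes below 0.

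The lowest unadjusted p in MPP was that of Bop1 (chr15:76452988-76477249), which with Pes1 and Wdr12 forms the PeBoW complex of large subunit maturation. Bop1 was at 112, 128, 106 and 163 CPM in control and at 85.8, 84.7, 65.0 and 94.0 in deleted MPP, with all deleted values below all control values (-0.62 ± 0.19, adjusted p = 0.551, edgeR). Its partner Pes1 (chr11:3963975-3980004) was also lower without overlap but by less, at 97.8, 101, 98.8 and 103 against 87.0, 83.6, 79.1 and 96.0 CPM (-0.21 ± 0.15, adjusted p = 0.656, edgeR). The control values of Pes1 were the tightest of the 47 genes in MPP, so a small difference was enough to separate the groups. Wdr12, the other partner, differed by -0.01 ± 0.20. The methyltransferase Nop2 (chr6:125131883-125144753), with an E-box before its start, was at 126, 125, 138 and 159 CPM in control and 104, 123, 61.4 and 120.5 in deleted MPP (-0.42 ± 0.22, adjusted p = 0.631, edgeR). Deleted mouse 3 was farthest below, and those of litters 2 and 4 sat just under the lowest control. The nucleolar factor Rrp1b was at 59.7, 72.7, 91.4 and 84.8 CPM in control and 55.7, 63.0, 48.0 and 46.2 in deleted MPP (-0.53 ± 0.19, adjusted p = 0.596, edgeR), with the groups overlapping through litter 2.

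Among small subunit genes, Rrp12 (chr19:41859483-41896153), needed for export and processing of both subunits, was at 38.1, 40.4, 37.7 and 51.7 CPM in control and 27.5, 34.1, 13.1 and 19.1 in deleted MPP. The groups did not overlap, and deleted mice 3 and 4 were the lowest. Its log2 difference of -0.84 ± 0.28 was the most negative of the 47 (adjusted p = 0.579, edgeR). Nat10 (chr2:103721258-103762954), which acetylates the small subunit RNA, was at 54.2, 70.0, 71.9 and 73.4 CPM in control and 31.4, 59.5, 27.8 and 44.5 in deleted MPP (-0.72 ± 0.25, adjusted p = 0.592, edgeR). Only its deleted mouse of litter 2 came up into the control range. Heatr1 differed by -0.57 ± 0.27 and lay lower in the deleted mouse of each litter, and 10 of the 15 small subunit genes were below 0 (median -0.14).

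All 4 box C/D genes were below 0 in MPP (median -0.33): Nop56 by -0.40 ± 0.19, Rrp9, a protein of the particle that guides the first cuts, by -0.33 ± 0.21, Fbl by -0.32 ± 0.23 and Nop58 by -0.10 ± 0.27 on the log2 scale, none past the threshold. The box H/ACA median was -0.16, with Dkc1 at -0.19 ± 0.18. With all libraries the chaperones were the exception, with a median of 0.09 and 3 of 6 below 0. That rests on the library of deleted mouse 3, since without it all 6 lay below 0. Ncl then stood at -0.05, Npm1 at -0.07, Gnl3 at -0.11, Nolc1 at -0.23, Mybbp1a at -0.24 and Ddx21 at -0.28.

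Npm1 had the largest positive difference in MPP, and it came from a single library. Npm1 was at 448, 375, 401 and 401 CPM in control and 381, 446, 1343 and 331 in deleted MPP (0.62 ± 0.39, adjusted p = 0.645, edgeR), and without deleted mouse 3 the difference was -0.07. That mouse was also the highest for Ncl, at 884, 746, 997 and 861 CPM in control and 785, 945, 1801 and 777 in deleted MPP. It was so for Nop10 too, at 283, 295, 249 and 359 CPM in control and 260.3, 265, 598 and 228 in deleted MPP. The other deleted mice were near the controls in all 3 genes. Without that library the difference of Ncl went from 0.31 to -0.05 and that of Nop10 from 0.19 to -0.23. The same library held the lowest MPP values of Ubtf, Rrp12, Bop1, Pes1, Nop2 and Nat10 and the highest score of the ribosomal protein genes in MPP (0.701, the mean log2 CPM centred on the population). Leaving it out, the difference of Ubtf was -0.36, of Rrp12 -0.64, of Bop1 -0.52, of Pes1 -0.17, of Nop2 -0.24, of Nat10 -0.57 and of Polr1e -0.50, the lowest edgeR adjusted p among these being 0.372. Polr1b went from -0.50 to -0.33 and Heatr1 from -0.57 to -0.38 without that library. With it left out, which was chosen after seeing the data for the count of separated genes, 42 of 47 genes were below 0, the median was -0.19, 7 genes (3.88% of all genes) had all deleted below all control libraries, and 22 genes of the whole table passed the threshold.

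**Figure D2:**
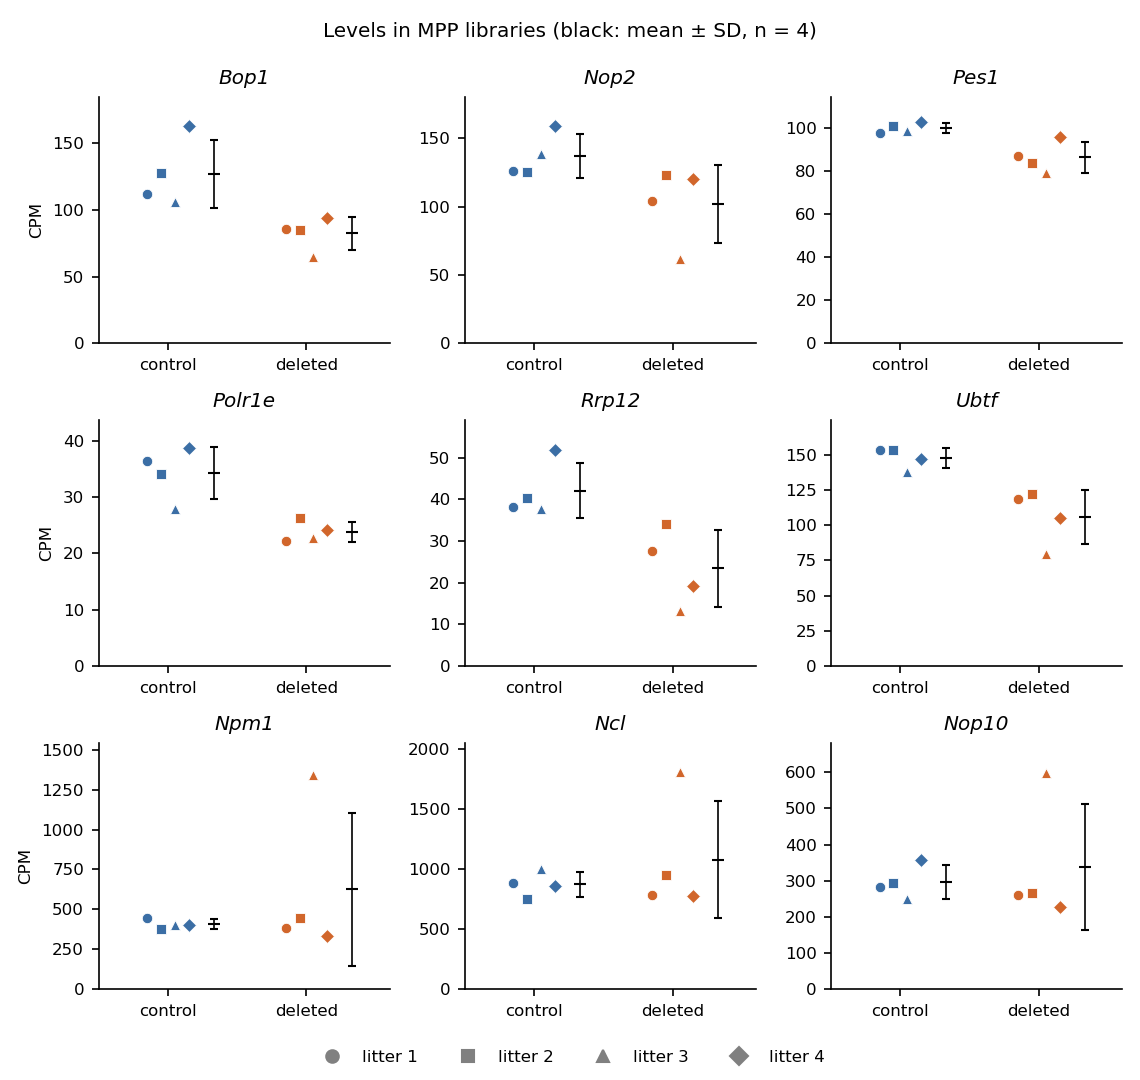
CPM in MPP of 9 genes, each point 1 mouse with the symbol giving its litter, blue for control and orange for deleted, and lines giving the mean with SD of 4 mice. In Bop1, Nop2, Pes1, Polr1e, Rrp12 and Ubtf the deleted points lie below all control points, while in Npm1, Ncl and Nop10 the deleted mouse of litter 3 lies far above the other 7 points.

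In HPC-1 the differences were small. None of the 47 genes passed with edgeR, where 0.0647% of all genes did, nor with DESeq2, limma-voom or the litter block. With edgeR, 0 had an unadjusted p under 0.05 (4.99% of all genes). The count was 0 with DESeq2 (5.68%), 0 with limma-voom (5.5%) and 2 with the litter block (7.95%). The log2 differences ran from -0.22 to 0.15 with a median of -0.06 (0.00 over all genes), and 34 of 47 were below 0 (50.7% of all genes). That count rests on 1 library: without the control mouse of litter 4 it was 14 of 47, with a median of 0.06.

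Ubtf was the gene whose groups did not overlap in HPC-1 (1 of 47, against 2.08% of all genes), at 318, 329.9, 343 and 376 CPM in control and 301, 315, 312 and 305 in deleted mice (-0.15 ± 0.08, adjusted p = 0.999, edgeR). The separation is narrow, with the highest deleted value just under the lowest control value. Dkc1 had the lowest p, at 239, 263, 256 and 313 CPM in control and 242, 238, 221 and 243 in deleted mice (-0.18 ± 0.09, adjusted p = 0.994, edgeR), and its groups overlap. Rrp1b had the most negative difference (-0.22 ± 0.11), with 136, 119, 133 and 180 CPM in control and 126, 115, 128 and 118 in deleted mice, the control of litter 4 far above the rest. The stem cell nucleolar GTPase Gnl3 differed by -0.20 ± 0.12, and Pes1, the most positive, by 0.15 ± 0.13. Polr1a, Polr1b, Rrn3, Fbl, Ncl, Npm1, Nop56 and Nat10 lay at 0.01 ± 0.09, -0.02 ± 0.10, -0.08 ± 0.11, 0.03 ± 0.20, -0.01 ± 0.15, 0.01 ± 0.13, -0.14 ± 0.11 and 0.05 ± 0.14 in that order. Every role had a median between -0.10 and -0.03.

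**Figure D3:**
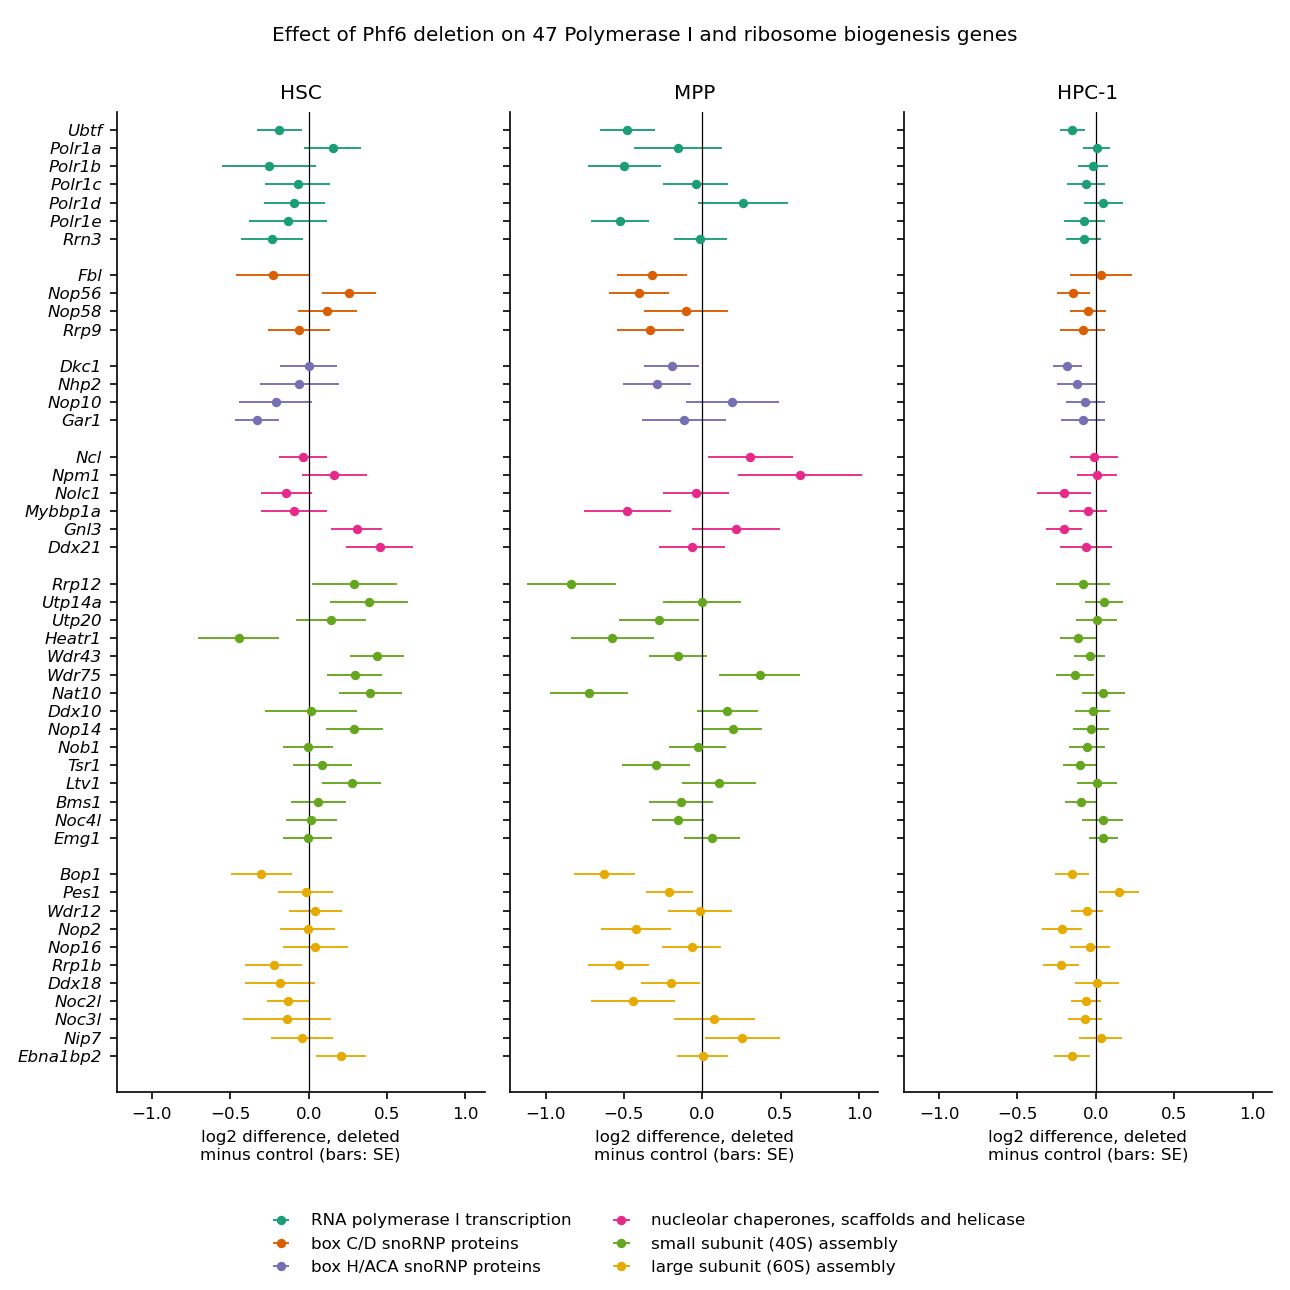
Log2 difference between deleted and control mice with its standard error for each of the 47 genes, grouped by role, in HSC, MPP and HPC-1. HSC values scatter about 0 (median -0.006), MPP values reach down to -0.84 in Rrp12 and up to 0.62 in Npm1, and HPC-1 values stay between -0.22 and 0.15.

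Over the 3 populations, 16 of the 47 genes were below 0 in each (19.3% of the genes tested in all 3), among them Ubtf, Polr1b, Polr1e, Rrn3, Heatr1, Bop1, Nop2 and Rrp1b, and 2 were above 0 in each (19.8% of genes), Npm1 and the small subunit export factor Ltv1. The sign of Npm1 in MPP rests on deleted mouse 3. Another 10 were above 0 in HSC and below 0 in both MPP and HPC-1 (9.92% of genes), among them Nop56, Nop58, Rrp12 and Wdr43. Ubtf was the gene lower without overlap in both MPP and HPC-1. Of all genes, 2.93% were so in MPP and 2.08% in HPC-1, and the share in both was not counted. Its HSC values were 135, 181, 162 and 167 CPM in control and 146, 132, 152 and 135 in deleted mice, and the groups overlap through the control of litter 1. Of the 8 genes with an E-box, 7 lay below 0 in MPP, with Ltv1 above, and the 35 with a window but no E-box had 24 below 0. In HSC 4 of the 8 with an E-box and 19 of the 35 without lay below 0, and in HPC-1 the counts were 5 of 8 and 27 of 35.

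Comparing the deleted mouse with its control in each litter gave counts of genes lower in 4 of 4 litters: 3 in HSC (6.76% of all genes), which were Gar1, Nolc1 and Heatr1, then 13 in MPP (11.1% of all genes) and 5 in HPC-1 (8.28% of all genes). The 13 in MPP were Ubtf, Polr1e, Rrp9, Mybbp1a, Rrp12, Heatr1, Nat10, Bop1, Pes1, Nop2, Rrp1b, Ddx18 and Noc2l. The 5 in HPC-1 were Ubtf, Nhp2, Bop1, Nop2 and Rrp1b. Litter 4 had the lowest median in each population (HSC -0.286, MPP -0.448, HPC-1 -0.214), with 37, 44 and 44 of the 47 genes lower in the deleted mouse. In litters 1 to 3 the HSC medians were 0.175, 0.051 and 0.104, the MPP medians -0.168, -0.016 and -0.019, and the HPC-1 medians 0.030, -0.042 and 0.013. Without litter 4 the genes below 0 numbered 15 in HSC and 20 in HPC-1.

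The 47 genes took 0.7008%, 0.7407%, 0.7908% and 0.8279% of all counts in control HSC and 0.7917%, 0.8281%, 0.8169% and 0.686% in deleted HSC. In MPP the shares were 0.6323%, 0.6311%, 0.6894% and 0.7478% in control and 0.5805%, 0.6466%, 0.6872% and 0.5544% in deleted mice. In HPC-1 they were 0.8257%, 0.8587%, 0.872% and 1.082% in control and 0.8424%, 0.826%, 0.8741% and 0.957% in deleted mice. The groups overlap in every population, and among the HPC-1 libraries the control mouse of litter 4 had the highest share. The deleted mouse of litter 4 had the lowest share in HSC and in MPP, and it was also lowest for proliferation genes: the S phase score was -0.404 in its HSC and -0.725 in its MPP, and the G2 and M phase score -0.750 and -1.264. Its summed CPM of neutrophil and monocyte markers was the highest of the population in HSC (13180) and MPP (15730). Its HPC-1 library also had the highest marker sum (3713) and the lowest G2 and M phase score (-0.302), while its share of 0.957% was the highest of the deleted HPC-1 libraries. The part of these in the values of litter 4 was not tested. In sorted bulk samples, fewer cells of a kind and less RNA per cell cannot be told apart.

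**Figure D4:**
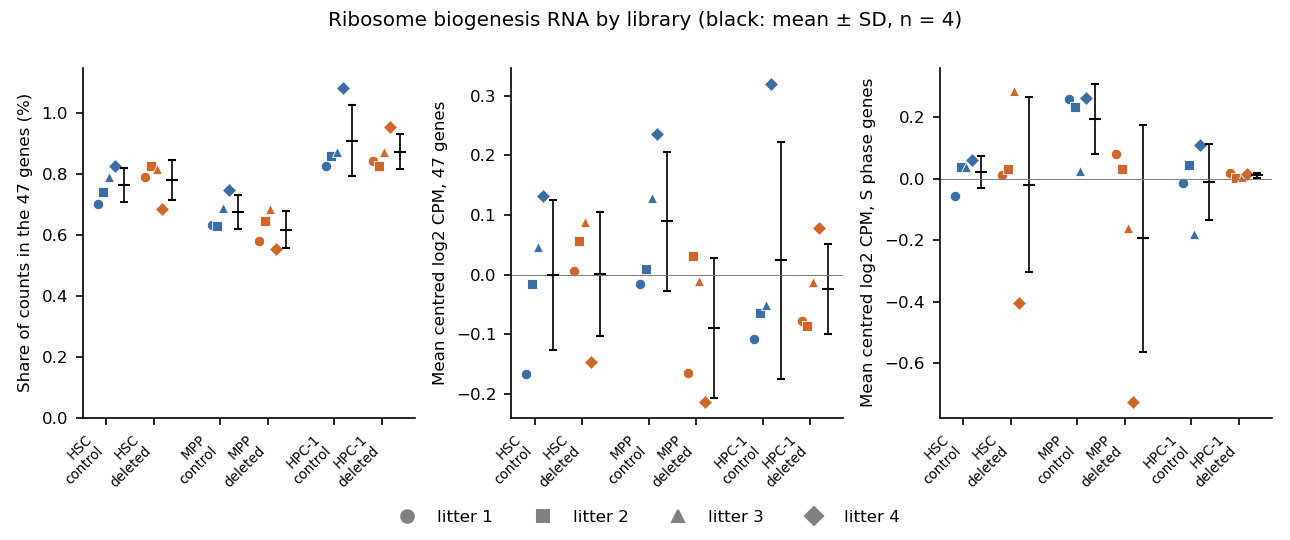
Per library, the share of counts in the 47 genes in percent, their mean log2 CPM centred on the population, and the same mean for S phase genes, by group with a symbol per litter and lines for the mean with SD of 4 mice, blue control and orange deleted. The deleted mouse of litter 4 is lowest in share in HSC (0.686%) and MPP (0.5544%), and the control of litter 4 is highest in HPC-1 (1.082%).

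Between MPP and HSC of the same mice, most of the 47 genes were lower in MPP. In control mice 38 of 47 lay below 0 (50.8% of all genes) with a median of -0.20 (-0.01 over all genes), and 1 gene, Nolc1, passed the threshold, where 8.84% of all genes did. In deleted mice 37 of 47 lay below 0 (48.6% of all genes) with a median of -0.33 (0.02 over all genes), and edgeR called 0 (1.41% of all genes). Unadjusted p-values under 0.05 numbered 9 in control (21.9% of all genes) and 9 in deleted mice (14.4% of all genes).

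Nolc1, the scaffold that tethers snoRNPs in the nucleolus and Cajal bodies, was at 147, 176, 152 and 139 CPM in control HSC and 82.9, 101, 109 and 112 in control MPP, with every MPP value below every HSC value. It fell by 0.60 ± 0.13 on the log2 scale (adjusted p = 0.0112, edgeR) and was the 1 gene called by DESeq2 (12.4% of all genes) and by limma-voom (9.25% of all genes) too. Without the control HSC of litter 1 or the control MPP of litter 4, edgeR called 2 genes. In deleted mice it stood at 145, 161, 139 and 111 CPM in HSC and 81.0, 96.2, 137 and 80.2 in MPP (-0.50 ± 0.23, adjusted p = 0.355, edgeR). With the mouse as a block, control mice had 6 genes past the threshold (15.5% of all genes passed), Nolc1, Nhp2, Nop10, Npm1, Bop1 and Ncl, all lower in MPP. Nhp2, a box H/ACA protein, was at 154, 187, 141 and 251 CPM in control HSC and 111, 119.5, 87.9 and 169 in control MPP, lower in MPP of each mouse although the groups overlap (-0.58 ± 0.21, adjusted p = 0.12 without and 0.00209 with the block, edgeR). Npm1 differed by -0.32 ± 0.12 (adjusted p = 0.123 without and 0.0228 with the block) and Nop10 by -0.38 ± 0.14 (adjusted p = 0.129 without and 0.0123 with the block, edgeR).

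In deleted mice the lowest p was that of Nop56, at 439, 549, 606 and 393 CPM in HSC and 262, 305, 223 and 283 in MPP of litters 1 to 4, with no overlap. Its log2 difference was -0.89 ± 0.20 (adjusted p = 0.0611, edgeR), and DESeq2 and limma-voom gave adjusted p-values of 0.00189 and 0.0456. Nat10 differed by -1.16 ± 0.28 (adjusted p = 0.0703 with edgeR, 0.0041 with DESeq2, 0.0475 with limma-voom), from 73.5, 82.7, 114 and 94.7 CPM in HSC to 31.4, 59.5, 27.8 and 44.5 in MPP. Bop1 (-0.74 ± 0.22) and Rrp12 (-1.16 ± 0.35) had adjusted p-values of 0.131 and 0.137 with edgeR, and DESeq2 called both. So 4 genes passed with DESeq2 (6.12% of all genes), 2 with limma-voom (1.95% of all genes) and 0 with edgeR or the mouse block (2.11% of all genes with the block). In 9 of 47 genes every deleted MPP library was below every deleted HSC library (6.04% of all genes), against 2 of 47 in control mice (8.21% of all genes).

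Mouse by mouse, 12 genes were lower in MPP than in HSC in 8 of 8 mice (8.45% of all genes): Fbl, Rrp9, Dkc1, Nhp2, Nolc1, Ltv1, Noc4l, Emg1, Bop1, Nop2, Rrp1b and Noc2l. No gene was higher in 8 of 8 (7.59% of all genes). The median difference over the 47 genes was below 0 in each mouse, at -0.162, -0.293, -0.205 and -0.157 in controls and -0.415, -0.302, -0.389 and -0.238 in deleted mice of litters 1 to 4. Each deleted mouse was thus lower than its litter's control. Cell cycle genes were also lower in MPP. In each genotype, 30 of 30 S phase genes and 24 of 24 G2 and M phase genes lay below 0. The S phase median was -0.5767 in control and -0.9999 in deleted mice. The G2 and M phase median was -1.0700 in control and -1.3797 in deleted mice. In control mice 20 S phase genes and 23 genes of G2 and M phase passed as lower (652 of 13636 over all genes). In deleted mice 3 S phase genes and 4 genes of G2 and M phase did (107 of 13887 over all genes). Standard errors were larger there, with an S phase median of 0.2851 against 0.1483 in control mice. So the smaller counts do not show a smaller fall. The part of the cell cycle genes in the lower levels of the 47 genes was not tested.

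**Figure D5:**
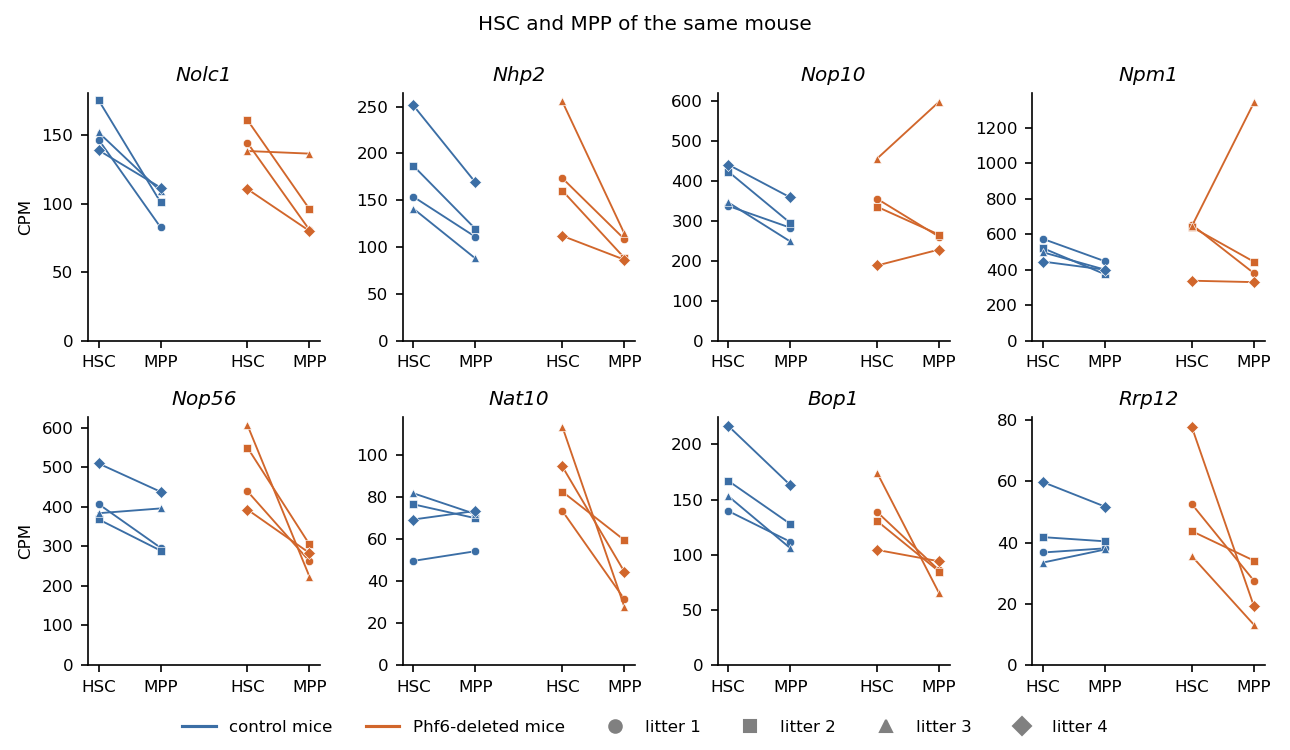
CPM in HSC and MPP of the same mouse, joined by a line, for 8 genes, blue for control and orange for deleted mice with a symbol per litter. Nolc1, Nhp2 and Bop1 are lower in MPP in each of the 8 mice, and Npm1 and Nop10 are higher in MPP in the deleted mouse of litter 3 (647.4 to 1343 CPM for Npm1).

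An interaction term tested whether deletion acted differently in the populations. For MPP minus HSC, 0 of 47 genes passed with edgeR (0% of all genes), with DESeq2, limma-voom or the mouse block, and 4 had an unadjusted p under 0.05 (2.86% of all genes) with each tool. These 4 were Nat10 (-1.11 ± 0.33), Rrp12 (-1.12 ± 0.41), Nop56 (-0.65 ± 0.26) and Wdr43 (-0.58 ± 0.25), with edgeR adjusted p-values of 1. Each was higher in deleted than control HSC and lower in deleted than control MPP by its mean. Rrp12, for example, was at 36.8, 41.8, 33.5 and 59.8 CPM in control HSC and 52.5, 43.7, 35.5 and 77.7 in deleted HSC, a difference of 0.29 ± 0.27, beside -0.84 ± 0.28 in MPP. Of the 47 interaction estimates 34 were below 0 (47.7% of all genes), with a median of -0.18 (0.02 over all genes), which was -0.11 without the deleted HSC library of litter 3.

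For HPC-1 minus HSC, 0 of 47 passed with edgeR (0% of all genes) and 2 had an unadjusted p under 0.05 (3.46% of all genes), Gnl3 (-0.51 ± 0.21) and Wdr43 (-0.47 ± 0.20), both with adjusted p = 1. DESeq2 and limma-voom also called 0. For HPC-1 minus MPP, 0 of 47 passed with edgeR (0% of all genes), DESeq2 or limma-voom and 3 had an unadjusted p under 0.05 (4.48% of all genes). They were Nat10 (0.76 ± 0.29), Rrp12 (0.75 ± 0.34) and Bop1 (0.46 ± 0.22), with edgeR adjusted p-values of 0.915. The library kit differs between these populations, and the interaction compares effects within a kit. The tests share libraries, and their values are set side by side only.

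The rest of the pathway was read from lists of other genes. None of the 13 other polymerase I subunits and factors, 33 other small subunit factors, 42 other large subunit factors, 13 exosome genes, 22 RNA polymerase III genes, 11 MYC, MAX and MXD factors or 79 cytosolic ribosomal protein genes passed the edgeR threshold on deletion in HSC, MPP or HPC-1. In MPP the medians were 0.02 for the other polymerase I genes (-0.10 without deleted mouse 3) and 0.04 for the ribosomal protein genes (-0.15 without deleted mouse 3). They were -0.16 for the other small subunit factors with 22 of 33 below 0, and -0.06 for the other large subunit factors with 23 of 42 below 0. Exosome genes had a median of 0.05 (-0.08 without deleted mouse 3), RNA polymerase III genes of -0.05 and the MYC, MAX and MXD factors of 0.19. The lowest p of the small subunit list was that of Bysl, needed for late maturation (-0.62 ± 0.23, adjusted p = 0.597, edgeR). In HSC 64 of 79 ribosomal protein genes were below 0 with a median of -0.17, while the other small and large subunit factors had medians of 0.06 and 0.10.

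Myc itself was at 412, 398, 416 and 591 CPM in control MPP and 292, 362, 196 and 264 in deleted MPP. The groups did not overlap, and the lowest value was that of deleted mouse 3. With that library included, the difference was -0.70 ± 0.22 (adjusted p = 0.551, edgeR), short of the threshold. In HSC it was -0.09 ± 0.14 and in HPC-1 -0.24 ± 0.12, and the MPP minus HSC interaction was -0.60 ± 0.26 (adjusted p = 1, edgeR). Between MPP and HSC of control mice, the Myc relative Mycn (-0.77 ± 0.14, adjusted p = 0.00323) and the Max partner Mxd3 (-1.20 ± 0.22, adjusted p = 0.00411) fell, as did the exosome gene Exosc2 (-0.60 ± 0.13, adjusted p = 0.00923) and Polr2f, a subunit shared by the RNA polymerases (-0.69 ± 0.15, adjusted p = 0.0129, edgeR). So did 4 of the 79 ribosomal protein genes.

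Other lists lay off 0 beside the 47 genes in MPP. S phase genes had a median of -0.35 on deletion, with 23 of 30 below 0, 8 with an unadjusted p under 0.05 and 0 past the threshold with edgeR, and G2 and M phase genes had a median of -0.29 with 21 of 24 below 0. The lowest p among S phase genes was that of the chromatin assembly factor Chaf1a (-0.89 ± 0.26, adjusted p = 0.551, edgeR). The 16 neutrophil and monocyte markers were all above 0 in each population, with medians of 1.23 in MPP, 0.64 in HSC and 0.49 in HPC-1 and 0 past the threshold. Of these markers 14 of 16 were above 0 CPM in all 24 libraries, Cxcr2 and Ly6g being at 0 in 1 library each. Their summed CPM ran from 659.2 to 3577 in control MPP and from 1838 to 15730 in deleted MPP, from 1172 to 8802 in control and 2141 to 13180 in deleted HSC, and from 732 to 1902 in control and 723.3 to 3713 in deleted HPC-1. The part of these genes in the lower values of the 47 genes was not tested.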

How the data were processed

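Poly(A) RNA of 24 libraries was sequenced as paired reads of 80 bp. The authors deposited raw counts for each gene, and the submitters' processing notes list bcl2fastq, featureCounts and the build mm10. No source used here gives the aligner, annotation, versions or strand setting. Gene names, positions and promoters came from RefSeq tables of GRCm38.p6, which named 25275 of 27179 identifiers. Exon lengths are those in the count files.

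Comparisons used edgeR 4.0.16 in R 4.3.3 on the counts: TMM scaling, genes kept at a count of 10 and a total of 15, the robust quasi-likelihood test, and Benjamini-Hochberg adjustment over all genes tested, with a threshold of 0.05. A standard error is the log2 difference divided by the square root of F. CPM used the 16 SMART-Seq and the 8 TruSeq libraries separately, and scores used log2 CPM with a prior count of 2. Each deletion comparison used the 8 libraries of its population. Alternatives were DESeq2 1.42.0, limma-voom 3.58.1, other size factors, no filter, a litter or mouse block, and leaving out each library. The edgeR, DESeq2 and limma-voom fits without a block were tested on simulated counts. This covered the deletion in each population, MPP against HSC in control mice and the MPP minus HSC interaction. The other comparisons, the blocks and the code for counts and scores were not tested so. Total counts of 9658167 to 27786830 per library limit precision for low genes, and amplified reads are not independent molecules. No 2 libraries of a group agreed within sampling noise (chi-square per degree of freedom 16.1 to 234).

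The replicate number pairs samples by design, since the labels give it as the litter and the same mouse gave all 3 populations. Deviations of same-numbered libraries from their group means correlated at 0.011 to 0.056 in HSC, 0.0034 to 0.15 in MPP, 0.077 to 0.38 in HPC-1, 0.15 to 0.32 between HSC and MPP of controls and 0.019 to 0.38 of deleted mice. For differently numbered libraries the ranges, in that order, were -0.097 to 0.064, -0.19 to 0.14, -0.21 to 0.12, -0.17 to 0.013 and -0.31 to 0.1. So the ranges overlap in every case but that between HSC and MPP of controls.

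The members, gene lists and tests were chosen with earlier results of these data known, so lists get counts and medians and no test. Named were Phf6; in each comparison the members past the threshold, or the 4 with the lowest p; the largest and smallest difference on deletion; Ubtf, Polr1a, Polr1b, Rrn3, Fbl, Ncl, Npm1 and Dkc1; up to 2 per role by lowest p; up to 6 per population without overlap; and up to 4 genes past the threshold, or 2 by lowest p, from other lists. Other members were named after their values were seen, where counts or levels called for it.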

Additional observations from a re-analysis of the deposited data

Results flagged for a closer look

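In groups of 4 libraries, 11 of 168 values tested had 1 library far from the other 3 for its group's range, and chance alone flags about 1 in 20. Of the MPP values, 3 are of the deleted mouse of litter 3, the library with 9.339% of its counts in 10 genes: Npm1 at 1343 CPM (331.1 to 445.7 in the other 3), Ncl at 1801 (777.2 to 945.3) and Nop10 at 597.9 (228.4 to 265.4). In HPC-1, 3 are of the control mouse of litter 4: Ddx21 at 589.5 CPM (371.3 to 391.5), Polr1b at 141.7 (110.3 to 114) and the mean centred log2 CPM of the 47 genes at 0.32 (-0.107 to -0.05). In HSC the deleted mouse of litter 4 had Npm1 at 339.1 CPM (641.4 to 654.2). Of the control HSC, the mouse of litter 1 had Polr1b at 57.31 CPM (127.4 to 134.9), that of litter 2 had Ddx21 at 65.39 (100.8 to 106.9), and that of litter 4 had Rrp9 at 112 (79.43 to 83.15). The deleted HPC-1 mouse of litter 3 had Polr1e at 42.54 CPM (38.37 to 38.84).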

How the results depend on the processing

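The call of 0 of 47 genes on deletion held in each of the 3 populations under every alternative run, DESeq2, limma-voom and the litter block included. The counts over all genes moved: DESeq2 called 14 (HSC), 96 (MPP) and 68 (HPC-1), limma-voom 3 and no expression filter 20 (both HPC-1), and leaving out litter 4, chosen after seeing the data, 0 in MPP. For the differing effects DESeq2 called 2 genes (MPP minus HSC), 11 (HPC-1 minus HSC) and 7 (HPC-1 minus MPP), none of the 47. The litter as a block called 0 genes in HSC and 60 in HPC-1; the mouse as a block called 2109 genes and 6 of the 47 for MPP against HSC in controls, and the block changed no other call of the 47. In deleted mice DESeq2 called 843 genes and 4 of the 47, and limma-voom 2 of the 47. Phf6 in HSC missed the threshold with the block (-1.99, adjusted p = 0.0606) and with any of 6 of the 8 libraries left out (highest adjusted p = 0.253), and in MPP without litter 4 (-1.84, adjusted p = 0.124). The cause was not tested.

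Leaving out 1 library gave 0 to 1 genes in HSC, 2 to 22 in MPP, 1 to 11 in HPC-1, and 0 to 1 for HPC-1 minus HSC. For MPP against HSC it gave 54 to 208 genes in deleted mice. In control mice it gave 832 to 1338 genes, and 1 to 2 of the 47. Medians over the 47 ran from -0.063 to 0.062 in HSC, -0.188 to -0.078 in MPP, -0.104 to 0.058 in HPC-1, -0.218 to -0.121 for MPP against HSC in controls and -0.393 to -0.258 in deleted mice. For the differing effects they ran from -0.224 to -0.114 (MPP minus HSC), -0.092 to 0.061 (HPC-1 minus HSC) and -0.011 to 0.173 (HPC-1 minus MPP).

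Signs turned in small differences. Dkc1 in HSC was -0.006 with no filter, -0.020 with limma-voom and -0.021 with the block. Without litter 4, Rrp9 in HSC was 0.082, Gar1 and Ddx21 in MPP 0.176 and 0.055, and in HPC-1 Polr1b was 0.075, Ncl 0.038, Npm1 -0.020, Rrp9 0.036, Gar1 0.085, Ddx21 0.004, Polr1e 0.036 and Rrp12 0.058. Leaving out 1 library, HSC ranges crossing 0 were Ncl -0.130 to 0.041, Dkc1 -0.162 to 0.100, Rrp9 -0.203 to 0.078 and Polr1e -0.359 to 0.022. In MPP they were Npm1 -0.068 to 0.822, Polr1a -0.382 to 0.059, Rrn3 -0.082 to 0.059, Ncl -0.054 to 0.426, Gar1 -0.382 to 0.045, Ddx21 -0.279 to 0.038 and Gnl3 -0.111 to 0.368. In HPC-1 they were Polr1a -0.050 to 0.043, Polr1b -0.052 to 0.077, Fbl -0.101 to 0.272, Ncl -0.130 to 0.153, Npm1 -0.108 to 0.095, Rrp9 -0.188 to 0.058, Gar1 -0.160 to 0.064, Ddx21 -0.186 to 0.125, Polr1e -0.155 to 0.018, Rrp12 -0.205 to 0.132 and Nat10 -0.037 to 0.154.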
